A study of Mus musculus with 12 samples.

Results

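Atf3, a stress-induced transcription factor of the ATF/CREB family, was followed together with Jun, Junb and Fos, members of the AP-1 family. Jun, Junb and Fos are called partners below for short, although among them ATF3 is described as a dimer partner of the Jun proteins only. The set was defined by 4 Ensembl transcript IDs, ENSMUST00000027941 for Atf3, ENSMUST00000107094 for Jun, ENSMUST00000064922 for Junb and ENSMUST00000021674 for Fos, and all 4 were found among the 74007 probe sets of the deposited table. The study asked how macrophages change their transcription when they become foam cells and what loss of Atf3 does to this. Bone marrow of 12 female mice aged 8 to 12 weeks, of C57BL/6J background and fed normal chow, was grown into macrophages with recombinant human M-CSF at 50 ng/mL, and each mouse gave 1 Affymetrix Mouse Exon 1.0 ST array. The 4 groups of 3 arrays were Atf3-/- macrophages given copper-oxidised human low-density lipoprotein (oxLDL) at 25 ug/mL from day 7 for 24 h, Atf3-/- macrophages without stimulus, wild-type (WT) macrophages with the same oxLDL, and WT macrophages without stimulus. The labels do not say which part of the Atf3 gene the Atf3-/- allele lacks or in which cells it is lost. The Atf3 signal on the Atf3-/- arrays was higher than in WT, as described below, which does not settle whether their label is right. These arrays are therefore called KO-labelled throughout.

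AP-1 factors carry a basic region that contacts DNA and a leucine zipper through which a pair of proteins holds together. Jun proteins pair with each other or with a Fos protein, whereas Fos needs a Jun partner, and ATF3 can pair with itself or with Jun proteins. Fos, Jun and Junb are immediate-early genes, whose RNA is known for a fast and short-lived rise after a stimulus, and Atf3 RNA rises after many kinds of cell stress. In mouse macrophages ATF3 is known as a repressor of inflammatory cytokine genes that is induced through Toll-like receptors, and in human cells ATF3 protein is known to bind and repress its own promoter.

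The bases upstream of each gene are shown as a description, and whether they bear on the levels below was not tested. Each window holds the 250 bases before the RefSeq start of the gene on build GRCm38.p6, written 5′ to 3′ on the gene's strand, with matches to the searched motifs in capitals. The windows lie at chr1:191183334-191183583 (minus strand) for Atf3, chr4:95052223-95052472 (minus) for Jun, chr8:84978749-84978998 (minus) for Junb and chr12:85473640-85473889 (plus) for Fos.
Atf3: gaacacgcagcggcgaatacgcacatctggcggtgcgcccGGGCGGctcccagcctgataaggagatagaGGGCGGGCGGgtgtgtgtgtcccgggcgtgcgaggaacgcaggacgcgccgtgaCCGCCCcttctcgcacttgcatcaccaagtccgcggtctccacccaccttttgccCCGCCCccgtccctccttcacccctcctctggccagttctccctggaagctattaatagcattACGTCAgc
Jun: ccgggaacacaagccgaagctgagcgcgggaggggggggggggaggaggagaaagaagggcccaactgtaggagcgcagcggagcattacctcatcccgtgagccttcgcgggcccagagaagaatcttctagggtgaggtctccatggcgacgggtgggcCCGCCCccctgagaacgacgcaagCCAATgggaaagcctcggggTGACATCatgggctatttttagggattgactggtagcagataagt
Junb: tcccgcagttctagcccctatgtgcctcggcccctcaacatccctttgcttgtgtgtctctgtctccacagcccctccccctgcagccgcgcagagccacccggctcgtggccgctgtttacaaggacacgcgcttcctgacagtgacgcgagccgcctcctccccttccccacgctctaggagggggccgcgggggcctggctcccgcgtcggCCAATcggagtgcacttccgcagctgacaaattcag
Fos: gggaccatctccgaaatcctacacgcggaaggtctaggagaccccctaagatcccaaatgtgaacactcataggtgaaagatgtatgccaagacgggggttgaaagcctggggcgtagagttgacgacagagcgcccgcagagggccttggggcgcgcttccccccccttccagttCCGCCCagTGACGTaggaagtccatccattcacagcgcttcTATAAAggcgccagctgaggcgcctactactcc

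The core of the cAMP response element, TGACGT, was found in the windows of Atf3 and Fos and in 6.47% of 32851 mouse promoter windows of this length. In Atf3 it lay 8 to 3 bases before the start, on the strand opposite to the gene, and in Fos 66 to 61 bases before it, on the gene's strand. The letters TGACATC, which were added to the search after the windows had been read, occurred in Jun 45 to 39 bases before the start and in 4.83% of all windows. The AP-1 motif TGACTCA was in 0 of the 4 windows and in 4.46% of all windows. Atf3 held 5 matches to the GC box GGGCGG, 2 of which overlapped, Jun and Fos held 1 each, and 32.7% of all windows held at least 1. The CCAAT box was in the windows of Jun and Junb and in 33.8% of all windows, and TATAAA was in that of Fos and in 12.4%. All motifs were searched on both strands. A match describes letters only, and no binding was measured.

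Some facts of all arrays touch the values below. Array medians lay between 8.42 and 8.57 on the log2 scale. Replicates labelled KO lay closer together than WT replicates, where the SD across probe sets of the deviations of 1 array from the mean of its group was 0.0491 to 0.0714 on the 6 KO-labelled arrays, against 0.128 to 0.252 on the 6 WT arrays. WT oxLDL replicate 3 had the largest of these SDs and unstimulated WT replicate 1 the next, and results that rest on them are given without them too. The probe sets carry no gene names beyond those of the set, so markers of macrophages and of other cell types were not analysed here. With 3 arrays a group, the number of arrays limits how precise each value can be.

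The Atf3 signal rose with oxLDL in both genotypes and was higher, not lower, on the KO-labelled arrays. On the log2 scale, Atf3 stood at 12.74, 12.56 and 12.71 on the KO-labelled arrays with oxLDL and at 11.41, 11.52 and 11.47 on those without it. In WT it stood at 11.63, 11.69 and 11.64 with oxLDL and at 11.00, 11.01 and 10.59 without it. The 3 KO-labelled arrays with oxLDL were the highest of the 12 and the 3 unstimulated WT arrays the lowest. WT arrays with oxLDL all lay above the unstimulated KO-labelled arrays. Within each array, Atf3 lay above 91.6% to 99.5% of all probe sets, its lowest place being on unstimulated WT replicate 3.

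**Figure D1:**
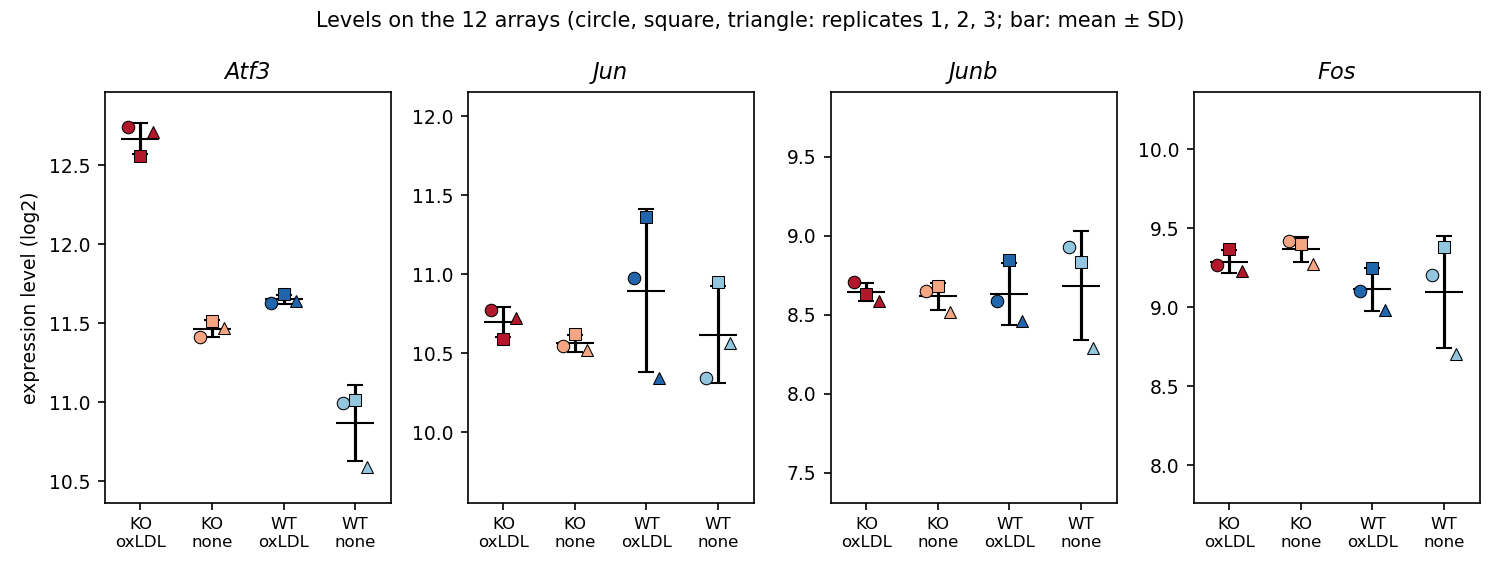
Expression level (log2) of Atf3, Jun, Junb and Fos on each of the 12 arrays, by group, with KO for KO-labelled. Symbols are replicates 1 to 3, bars are the mean ± SD of 3 arrays, and every panel spans the same log2 range. Atf3 separates the groups in each genotype and in each state, with means from 12.67 down to 10.87, while the groups of Jun, Junb and Fos overlap.

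The genotype comparison was planned as a check of the targeted gene, which it could not give, for the reasons set out below. With oxLDL, Atf3 averaged 12.67 ± 0.10 on KO-labelled arrays and 11.65 ± 0.03 in WT (log2 mean ± SD, n = 3 arrays each), a 2.02-fold higher level (log2 difference 1.02, SE 0.12, 95% confidence interval 0.76 to 1.27, limma adjusted p = 1.27e-04). Without oxLDL it averaged 11.47 ± 0.05 on KO-labelled arrays and 10.87 ± 0.24 in WT, which was 1.52-fold higher (log2 difference 0.60, SE 0.12, interval 0.35 to 0.85, limma adjusted p = 0.00539). Each adjusted p is from limma with Benjamini-Hochberg adjustment over the 39620 probe sets tested. Over both states the difference was 0.81 (SE 0.08, limma adjusted p = 2.09e-05). An exact permutation test of this difference within states gave p = 0.005 (two-sided), the smallest its 400 arrangements allow, and the KO-labelled arrays were higher in both states.

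A probe set reports a deletion where its probes read the removed part. Which exons the probes of ENSMUST00000027941 read is not stated in any source used here, and signal from outside a removed part checks nothing about the allele. Whether the arrays labelled Atf3-/- come from cells without ATF3 protein was not tested. The labels of the genotypes, which set the sign of every genotype difference here, were taken as given.

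Differences between the genotypes were common across the array. With oxLDL, 1 of the 4 genes, Atf3, was called, and it was higher; 19.9% of tested probe sets were called higher and 8.91% lower on KO-labelled arrays. Without oxLDL again 1 of 4, Atf3, was called, and 11.4% of tested probe sets were called higher and 5.38% lower. Its genotype groups did not overlap in either state, as was so, in the higher direction, for 26.7% of tested probe sets with oxLDL and 23% without it. That balance of directions depended on scaling: after quantile normalization 21.7% of tested probe sets were called higher and 23.6% lower with oxLDL, and 15.1% and 15.8% without it. Atf3 stayed higher on KO-labelled arrays under that scaling, by 0.91 with oxLDL (limma adjusted p = 4.36e-05) and by 0.60 without it (adjusted p = 0.00102). The Atf3 difference in the values as deposited lay above those of 95.9% of tested probe sets with oxLDL and 93.6% without it. The median difference of the 4 genes was 0.09 with oxLDL and 0.11 without it, beside 0.00 and -0.02 for all tested probe sets.

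The rise of Atf3 with oxLDL was among the larger rises on the array in both genotypes. Its ranks below hold within 1 genotype and do not compare the genotypes. Changes with oxLDL spread more widely over the probe sets in WT than on KO-labelled arrays. On KO-labelled arrays Atf3 averaged 12.67 ± 0.10 with oxLDL and 11.47 ± 0.05 without it, a 2.30-fold rise (log2 difference 1.20, SE 0.12, interval 0.95 to 1.46, limma adjusted p = 8.80e-04). In that comparison Atf3 alone of the 4 genes was called, where 0.603% of tested probe sets were called higher and, after quantile normalization, 1.93%. It ranked 9 by p-value and 48 by size of change among the 39620. In WT Atf3 averaged 11.65 ± 0.03 with oxLDL and 10.87 ± 0.24 without it, a 1.73-fold rise (log2 difference 0.79, SE 0.12, interval 0.53 to 1.04, limma adjusted p = 0.00151), again as 1 of 4, where 2.06% of tested probe sets were called higher and, after quantile normalization, 8.24%. The rise in WT lay above the change of 99.4% of tested probe sets. By p-value it ranked 468, and by size of change in either direction 1146. With oxLDL every array lay above every unstimulated array of its genotype, as for 24% of tested probe sets in the higher direction on KO-labelled arrays and 5.43% in WT.

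The rise in WT depended on how the spread was estimated. Fitted on the 6 WT arrays alone, its size was the same but its limma adjusted p was 0.0842, and 0.136% of tested probe sets were called higher there. Without unstimulated WT replicate 3, the lowest Atf3 value of all, the rise was 0.65 (limma adjusted p = 0.00271). On the 6 KO-labelled arrays alone the SE of the rise there was 0.06 and the limma adjusted p was 7.90e-07, where 14.1% of tested probe sets were called higher. Over both genotypes Atf3 rose by 0.99 (SE 0.08, limma adjusted p = 3.75e-05), where 3.64% of tested probe sets were called higher. That share was 9.59% after quantile normalization and 14.3% without WT oxLDL replicate 3. All 6 oxLDL arrays lay above all 6 unstimulated ones, as for 1.47% of tested probe sets in that direction, and the exact permutation test within genotypes gave p = 0.005, the smallest possible.

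Atf3 rose by 1.20 on KO-labelled arrays and by 0.79 in WT, and this difference of responses did not pass the test. It was 0.42 on the log2 scale (SE 0.17, interval 0.06 to 0.77), with an unadjusted limma p of 0.0265 and an adjusted p of 1.00. Of the 4 genes 0 were called for a different response by limma and 1, Atf3, had an unadjusted p under 0.05; across the array 0.00252% of tested probe sets were called. Without unstimulated WT replicate 3 the difference was 0.55 (adjusted p = 0.302), and after quantile normalization it was 0.31 (adjusted p = 0.722).

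**Figure D2:**
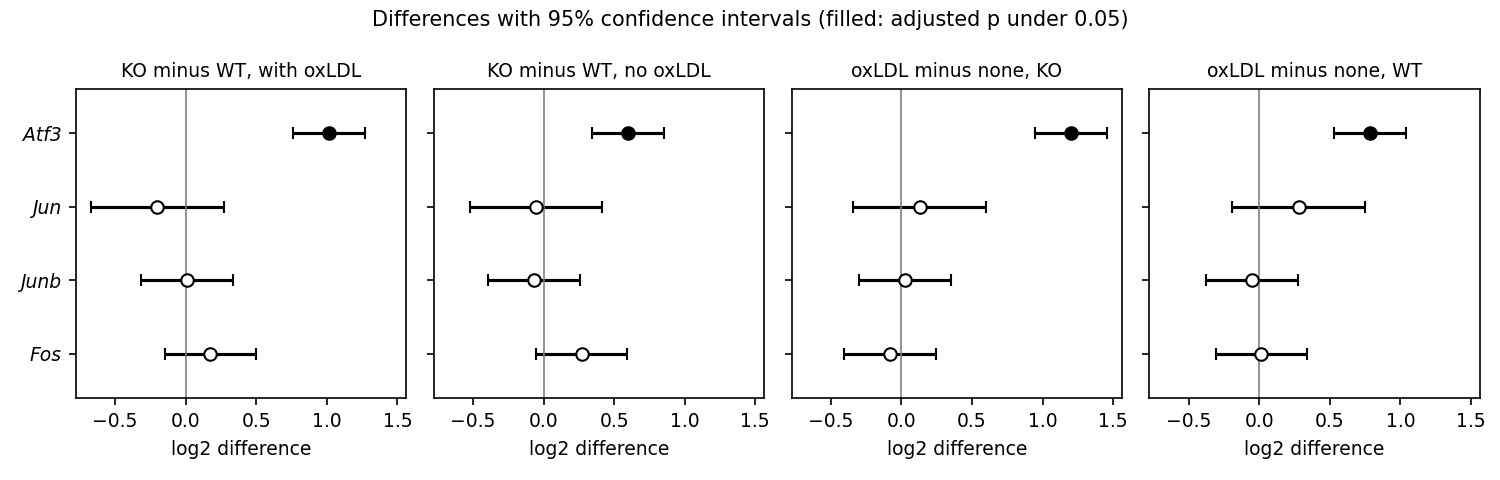
Log2 differences (x axis) of Atf3, Jun, Junb and Fos with 95% confidence intervals from limma, for KO-labelled (KO) minus WT in each state and for oxLDL minus none in each genotype. Filled points passed the adjusted test. Only Atf3 did, with 1.02, 0.60, 1.20 and 0.79, and the intervals of the other genes include 0.

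A further probe set gave nearly the same readings as Atf3. ENSMUST00000131854 followed it within 0.0992 on every array after centring, with group means of 12.73 and 11.55 on KO-labelled arrays with and without oxLDL and of 11.80 and 11.08 in the corresponding WT groups. No source used here names its gene, and if it shares probes with Atf3 it is not a separate measurement. Apart from it, the tested probe sets most like Atf3 over the 12 arrays were ENSMUST00000030069 (Pearson r = 0.984) and ENSMUST00000142583 (r = 0.982). The first averaged 10.57 and 9.87 on KO-labelled arrays with and without oxLDL, and 9.95 and 9.37 in WT. These correlations were picked as the highest among all tested probe sets and describe these arrays only.

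Jun, the AP-1 subunit that can bind DNA as a pair with itself, was well above the median of every array but varied widely among WT arrays. It stood at 10.77, 10.59 and 10.73 on KO-labelled arrays with oxLDL and at 10.55, 10.63 and 10.52 on those without it. In WT it stood at 10.98, 11.37 and 10.34 with oxLDL and at 10.34, 10.95 and 10.56 without it. The highest and one of the lowest values of Jun were thus both in WT with oxLDL, and the groups overlapped. Its replicate SD was 0.0772 over the KO-labelled groups and 0.424 over the WT groups, a ratio of 0.182, where the median ratio of tested probe sets was 0.277.

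Jun did not pass any of the 7 tests. The oxLDL difference was 0.13 on KO-labelled arrays (interval -0.34 to 0.60, limma adjusted p = 1.00) and 0.28 in WT (interval -0.19 to 0.75, adjusted p = 0.541). KO-labelled arrays minus WT gave -0.20 with oxLDL (interval -0.67 to 0.27, adjusted p = 0.517) and -0.05 without it (interval -0.52 to 0.42, adjusted p = 0.899). These intervals leave room for changes in either direction, so the test does not show that Jun was level.

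WT oxLDL replicate 3 decided the call for Jun. Without it, the oxLDL difference in WT was 0.55 (SE 0.16, limma adjusted p = 0.0294), and KO-labelled minus WT with oxLDL was -0.48 (SE 0.16, adjusted p = 0.0246). In those reduced fits 12.5% of tested probe sets were called higher with oxLDL in WT and 29.7% lower on KO-labelled arrays with oxLDL, so calls were frequent across the array as well. Leaving out WT oxLDL replicate 2 instead brought the oxLDL difference in WT to 0.04 (adjusted p = 0.904) and the genotype difference with oxLDL to 0.03 (adjusted p = 0.914). Without unstimulated WT replicate 1 the oxLDL difference in WT was 0.14 (limma adjusted p = 0.802). On the 6 KO-labelled arrays alone the rise of 0.13 had an unadjusted limma p of 0.0406 and an adjusted p of 0.117.

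**Figure D3:**
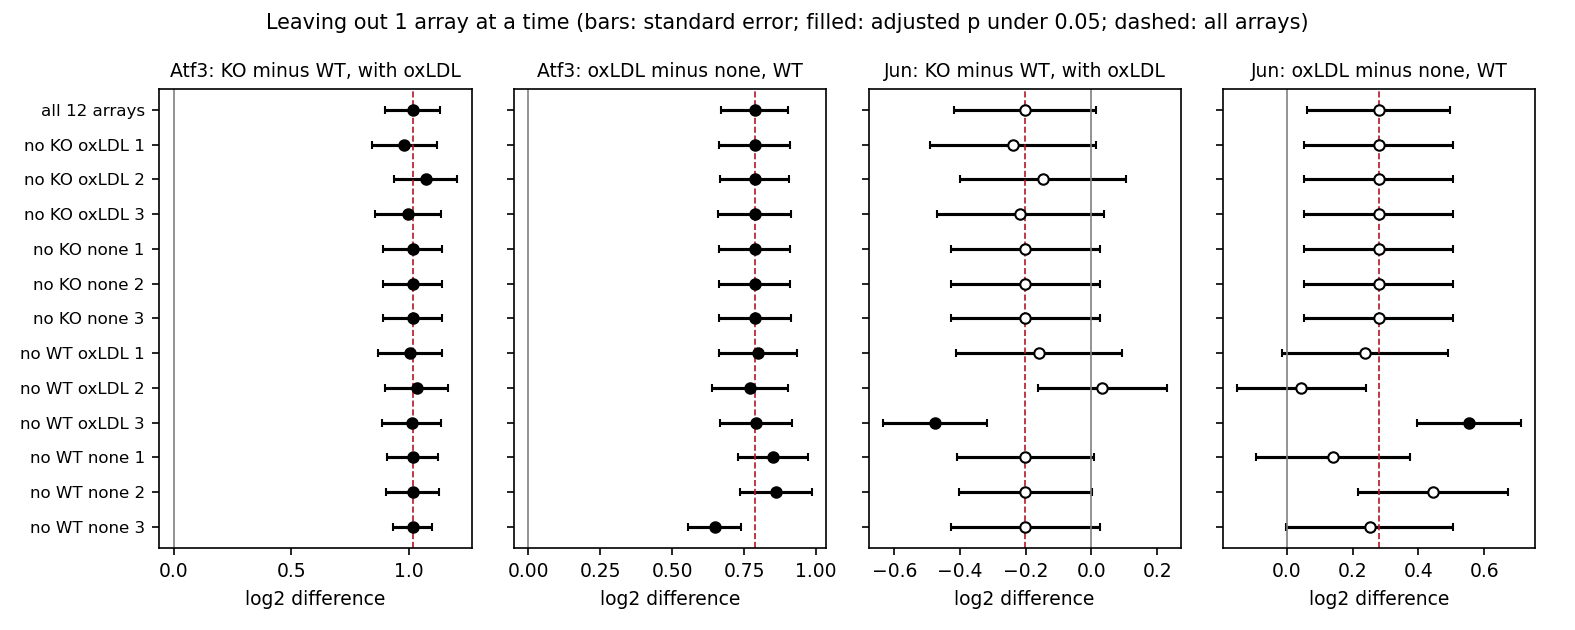
Log2 differences (x axis) of Atf3 and Jun when 1 array is left out at a time, for KO-labelled (KO) minus WT with oxLDL and for oxLDL minus none in WT. Bars are standard errors, filled points have a limma adjusted p under 0.05, and the dashed line is the value from all 12 arrays. Atf3 stays between 0.98 and 1.07 and between 0.65 and 0.86, whereas Jun ranges over -0.48 to 0.03 and 0.04 to 0.55 and passes only without WT oxLDL replicate 3.

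Junb, a Jun relative that can dampen the activity of Jun, lay near the middle of the array, above 44.8% to 60.1% of probe sets, and above the array median on 10 of 12 arrays. It stood at 8.71, 8.63 and 8.59 on KO-labelled arrays with oxLDL and at 8.65, 8.68 and 8.52 on those without it. In WT it stood at 8.59, 8.85 and 8.46 with oxLDL and at 8.93, 8.84 and 8.29 without it. Group means lay between 8.62 and 8.69 and all groups overlapped. The oxLDL difference was 0.03 on KO-labelled arrays (interval -0.30 to 0.35) and -0.05 in WT (interval -0.38 to 0.27), with limma adjusted p of 1.00 and 0.892. KO-labelled arrays minus WT gave 0.01 with oxLDL (interval -0.32 to 0.34, adjusted p = 0.968) and -0.07 without it (interval -0.39 to 0.26, adjusted p = 0.801). The sign of the difference with oxLDL turned to -0.03 under quantile normalization and under centring on array medians. Without unstimulated WT replicate 1, KO-labelled minus WT without oxLDL turned to 0.05 (limma adjusted p = 0.839).

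Fos, the partner that needs a Jun protein to bind DNA, lay above 56.9% to 71.4% of probe sets. It stood at 9.27, 9.37 and 9.23 on KO-labelled arrays with oxLDL and at 9.42, 9.40 and 9.27 on those without it. In WT it stood at 9.11, 9.25 and 8.98 with oxLDL and at 9.21, 9.38 and 8.70 without it. The 3 lowest Fos values were WT arrays and the 2 highest were unstimulated KO-labelled arrays, but the groups overlapped in both states. Over both states KO-labelled arrays averaged 9.33 ± 0.08 and WT arrays 9.11 ± 0.24 (SD, n = 6 each), a difference of 0.22 (SE 0.11, interval -0.01 to 0.45, limma adjusted p = 0.110).

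That Fos difference was the nearest of the partners to the threshold. In limma 1 of the 4 genes, Atf3, was called over both states, where 24% of tested probe sets were called higher. An exact permutation test within states gave p = 0.03 for Fos, without adjustment, as one of 8 such tests on the 4 genes. Without unstimulated WT replicate 2 the difference was 0.29 (limma adjusted p = 0.0362), where 22.8% of tested probe sets were called higher. Without unstimulated WT replicate 3, the lowest Fos value, it was 0.12 (adjusted p = 0.215). In the unstimulated state alone the Fos difference was 0.27 (adjusted p = 0.244) with all arrays and 0.07 (adjusted p = 0.725) without that replicate. Fos showed no called response to oxLDL: the difference was -0.08 on KO-labelled arrays (interval -0.40 to 0.24, adjusted p = 1.00) and 0.02 in WT (interval -0.31 to 0.34, adjusted p = 0.970).

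Of the 21 limma tests on Jun, Junb and Fos with all arrays as deposited, 0 passed after adjustment. Of these, 0 had an unadjusted p under 0.05, the lowest being 0.0559. The differences in response between KO-labelled and WT macrophages were -0.15 for Jun, 0.08 for Junb and -0.09 for Fos, each with an adjusted p of 1.00. The exact permutation tests gave p = 0.475 for genotype and 0.235 for oxLDL in Jun, 0.79 and 0.925 in Junb, and 0.78 for oxLDL in Fos. RNA was sampled once, after 24 h, so earlier changes of these short-lived RNAs were not measured. In cultures measured as a whole, a change in RNA per cell cannot be told apart from a change in which cells are present.

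**Figure D4:**
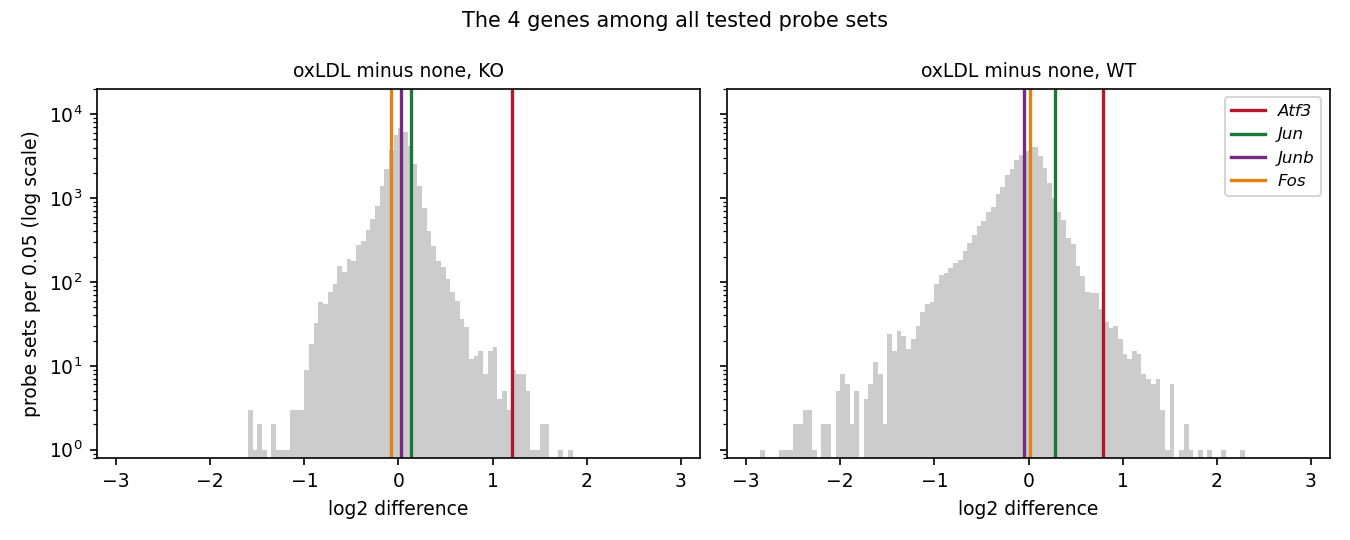
Log2 differences (x axis) for oxLDL minus none over the 39620 tested probe sets (grey, number per bin of 0.05, log scale), on KO-labelled (KO) and WT arrays, with vertical lines at Atf3, Jun, Junb and Fos. Atf3, at 1.20 and 0.79, lies in the upper tail of both, and Junb and Fos lie near the centre.

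IDs with a centred profile within 0.15 of the gene on every array were set aside before the probe sets most like the partners were picked. Of the remaining tested probe sets, those most like Jun over the 12 arrays were ENSMUST00000018295 (Pearson r = 0.986) and ENSMUST00000107716 (r = 0.983). For Junb they were ENSMUST00000122884 (r = 0.927) and ENSMUST00000126247 (r = 0.924), and for Fos ENSMUST00000142277 (r = 0.908) and ENSMUST00000035643 (r = 0.894). Centred profiles within 0.15 of the gene on every array were found for 10 IDs with Jun, 19 with Junb and 0 with Fos. For Jun, 2 of those IDs had an r over 0.98, at mean levels of 8.79 and 9.37 against 10.69 for Jun. No source used here names these IDs, and the profiles share the deviations of single WT arrays.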

How the data were processed

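The authors deposited log2 values for transcript-level probe sets, per the labels' design text. The submitters' processing notes name PLIER and Affymetrix Power Tools. Versions, background correction and between-array normalization were not given in the sources used here. Columns were matched to samples by name and samples to groups by title. The table holds 74007 probe sets with values from 5.89 to 14.5 and 0 missing. The 4 IDs were paired with gene names by the definition of the set, which no file used here checks. For the same reason, gene lists and cell type markers set out for the design were not run.

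Tests used limma 3.58.1 (R 4.3.3) with a mean per group over 12 arrays, an intensity trend in eBayes, and Benjamini-Hochberg adjustment over the 39620 probe sets (53.5%) above the array median on at least 3 arrays. All 4 genes passed this filter. An adjusted p under 0.05 was a call. The fit had 8 residual degrees of freedom. It was run on simulated data with independent arrays and the same spread in every group. That run does not cover the unequal spread of these arrays. Genes named for likeness were the 2 tested probe sets with the highest Pearson r that did not follow the gene within 0.15 or each other. Promoters come from RefSeq (GRCm38.p6), where 4 of 4 genes matched. The labels describe separate mice, but shared cultures or processing days are not given, so p-values cover only the spread among these samples, which may be technical. Genes, lists and tests were chosen with earlier results of these data known. Alternatives covered the filter, scaling, 16 added to unlogged values, the prior, array weights, a block for the replicate number, only the 6 arrays compared, and leaving out arrays.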

Additional observations from a re-analysis of the deposited data

How the results depend on the processing

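For the 6 comparisons in which Atf3 was called, 136 of 136 alternative fits kept its direction and 135 its call. Log2 differences were 0.46 to 1.26. All these fits reuse the same 12 arrays. Many cannot change the estimate, such as another filter or prior, or leaving out an array outside the comparison. Their direction was fixed in advance, so the counts are not independent support. The exception to the call, with only the groups compared, left 0 of the 4 genes called for oxLDL in WT. There 0.699% of all tested probe sets were called. In that fit 1 of the 4 genes had an unadjusted limma p under 0.05, and the share of all tested probe sets under that limit was not counted. Array weights gave 2 called genes for genotype over both states, 3 for genotype with oxLDL, 1 for the difference of responses, and 2 each for oxLDL on KO-labelled arrays, in WT and over both genotypes. In the same fits 67.7%, 84%, 3.55%, 36%, 24.8% and 38.6% of all tested probe sets were called in these comparisons, in that order. That estimation did not converge and gave WT oxLDL replicate 1 a weight of 1893, against 0.0224 to 2.54 on the others. Leaving out both WT oxLDL replicate 3 and unstimulated WT replicate 1 gave 2 called genes, Atf3 and Jun, for genotype with oxLDL and over both states and for oxLDL in WT and over both genotypes, where 56.3%, 65.1%, 21.1% and 28.3% of all tested probe sets were called, in that order. Leaving out 1 array gave 1 to 2 called genes in those 4 comparisons. It gave 1 in genotype without oxLDL and oxLDL on KO-labelled arrays, and 0 for the difference of responses. For these fits the share of all tested probe sets called was counted only where a second gene was called. The second gene was Jun without WT oxLDL replicate 3, where 34.2% of tested probe sets were called lower for genotype over both states and 14.3% higher for oxLDL over both genotypes, and Fos over both states without unstimulated WT replicate 2. Over the same leave-outs the Atf3 difference between genotypes over both states was 0.74 to 0.84. Junb passed in 0 of 158 alternative fits. With the replicate number as a replicate block, the Atf3 difference over both states was 0.81 (limma adjusted p = 5.81e-05) and calls on the 4 genes were the same in number. Same-numbered arrays of different groups had deviations correlated at -0.31 to 0.51, and 3 of 12 arrays correlated best with their own number, so the numbers were not taken as pairs. Scaling moved no comparison's median over all probe sets by more than 0.1. Only 3 arrays a group limit how small a difference could be called.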
